A study of Mus musculus with 12 samples.

Results

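The cadherins and protocadherins of purified CNS myelin were taken as all genes of the deposited table whose symbol starts with Cdh and a digit or with Pcdh, without the endothelial cadherin Cdh5. This rule gave 94 of 21937 genes, of which 59 were clustered protocadherins (15 Pcdha, 22 Pcdhb and 22 Pcdhg), 12 were non-clustered protocadherins, 17 were classic cadherins (5 of type I and 12 of type II) and 6 were atypical cadherins. Cadherins are calcium-dependent adhesion molecules of the cell surface, and the classic members bind their like on the neighbouring cell and are tied to actin through catenins. Clustered protocadherins are made from gene arrays in which each isoform has its own promoter and first exon. In the Pcdha and Pcdhg arrays these first exons are spliced to shared constant exons, whereas each Pcdhb gene stands alone. In neurons a few isoforms per cell serve as a surface barcode for the recognition of self, and the C-type isoforms at the ends of the Pcdha and Pcdhg arrays are regulated apart from the others.

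Myelin, the multilayered membrane that oligodendrocytes wrap around axons, had been enriched as a light membrane fraction on a sucrose gradient from whole brains of male, wild-type c57Bl6/N mice. The mice were 18 days (P18), 75 days (P75), 6 months or 24 months old. There were 3 RNA-Seq libraries for each of these 4 ages, and neither a treatment nor a genetic change was used at any age. The values are normalized read counts, which are reads per gene divided by a size factor of the library and not corrected for transcript length. Each library held 20299052 to 27214385 reads on genes, of which 9856 to 35207 fell on the cadherins and protocadherins, 23 to 299 on Pcdha, 818 to 4929 on Pcdhb and 139 to 2483 on Pcdhg. The defining genes of the labelled tissue were present, since the summed level of 12 genes of mature oligodendrocytes and myelin was 1290779 to 6220163 in the 12 libraries. Genes of other cells were present too, with sums of 216363 to 279565 for 15 neuronal and 101959 to 122909 for 11 astrocytic markers, and no marker of these lists was at 0 in every library. The fraction is a mixture, in which fewer cells of a type and less RNA per cell cannot be told apart.

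To find out how the family changed with age, the ages were compared with limma on log2(normalized read count + 1), and a gene was called at a Benjamini-Hochberg adjusted p under 0.1 over the 14634 genes whose mean over all libraries was 10 or more. Of the 94 genes, 69 passed this filter. The 25 that did not had means of at most 9.65 and comprised 14 Pcdha, 3 Pcdhb and 3 Pcdhg genes, Pcdh12, Cdh16, Cdh17, Cdh26 and Cdh29. Cdh16 and Pcdha4-g were listed at 0 in all libraries. A gene that passed only because it was high at 1 age had to differ between ages, so for pairs of ages the number of members whose libraries do not overlap, without a filter, is given beside the count of tested genes. The share of all genes without overlap was not computed, so these numbers do not tell what is particular to the family.

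From P18 to 24 months, 68 of the 69 tested genes were higher at the later age, where 34.7% of all genes tested were called higher. None was lower, against 34.3% of all genes tested, and edgeR and DESeq2 on the recovered reads also called 0 lower. The median log2 change was 1.52, compared to -0.01 over all genes tested. Without a filter, the 3 libraries at 24 months were above the 3 at P18 for 75 of the 94 genes and below them for 0. The tested gene that did not pass was Pcdh11x, at 5.94, 6.78 and 12.1 at P18 and 8.92, 16.2 and 17.6 at 24 months. Across the 4 ages the F test called 69 of 69, where 83.8% of all genes tested were called. For genes that passed the filter only through their older libraries this outcome was built in, so the count adds no separate support. The number of genes called higher from P18 to 24 months ranged from 65 to 69 when each library was left out in turn.

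The 3 steps between consecutive ages differed. From P18 to P75, 34 tested genes rose and 3 fell, where 25.9% and 22.9% of all genes tested did so. From P75 to 6 months 55 rose and 2 fell, against 31.2% and 29.4%. From 6 to 24 months 17 rose and 18 fell, against 16.6% and 12.7%. Without a filter, the later libraries lay above the earlier ones for 32, 69 and 18 of the 94 genes in the 3 steps, and below them for 7, 3 and 25. The family medians of the log2 change were 0.49, 0.92 and 0.05 in these steps, and those of all genes tested were 0.015, 0.005 and 0.028. The counts of the last step rested in part on single libraries. Without replicate 1 at 6 months 8 genes fell and without replicate 1 at 24 months 11 fell, and without replicate 2 at either 6 or 24 months 11 rose. The 3 genes that fell to P75 became 5 without replicate 1 at P75, and the 2 that fell to 6 months became 1 without replicate 2 or 3 at P75, any 1 library at 6 months, or replicate 2 at 24 months.

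**Figure D1:**
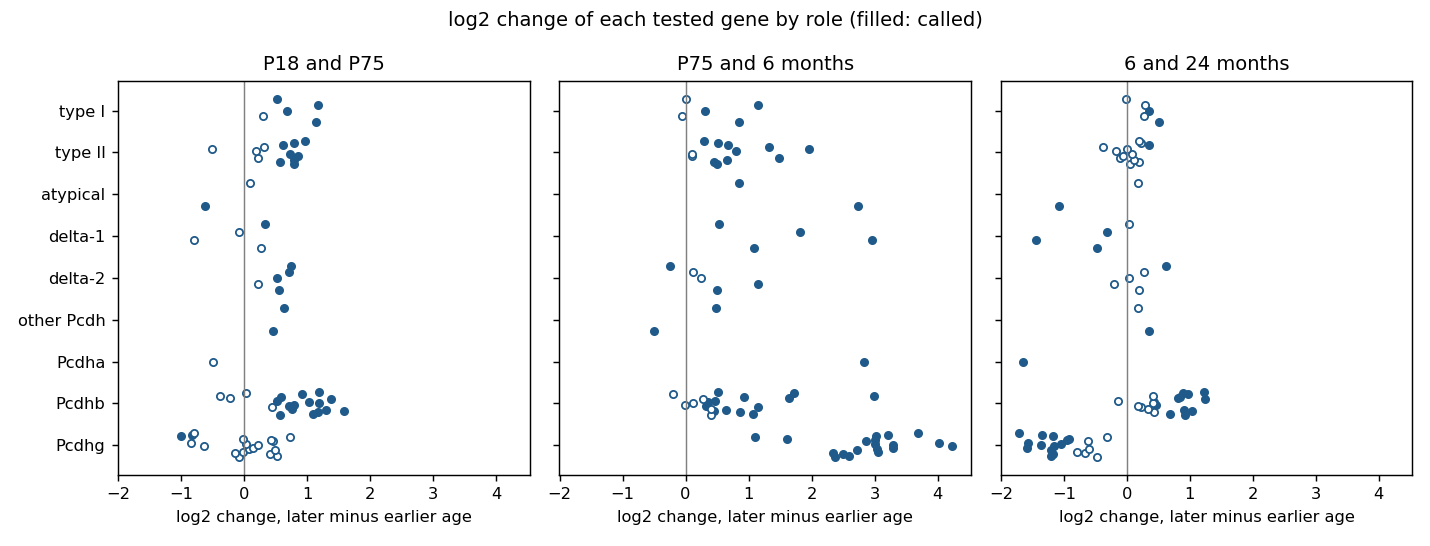
Each point is a tested gene, placed by its log2 change between consecutive ages (horizontal axis) and by its role in the family (vertical axis), with filled points for genes called at an adjusted p under 0.1. Pcdhg genes lie between 1.10 and 4.24 from P75 to 6 months and between -1.71 and -0.31 from 6 to 24 months, where Pcdhb genes lie between -0.14 and 1.24. Some Pcdhg genes passed the filter only through their 6-month libraries, which favoured such a rise and fall in advance.

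The 3 protocadherin clusters are adjacent on chromosome 18. In the NCBIM37 (mm9) annotation Pcdha lies at 37089939 to 37347311, Pcdhb at 37424652 to 37681073 and Pcdhg at 37833989 to 38001527. Despite this neighbourhood their summed levels followed different courses. The Pcdhb sum was 972.0, 937.9 and 1095 at P18, 1805, 1933 and 1947 at P75, 2788, 2479 and 2584 at 6 months and 4011, 4418 and 4563 at 24 months. Every age was therefore above the one before in all 3 libraries, with a ratio of means of 4.32 between 24 months and P18. The Pcdhg sum was 231.7, 272.3 and 261.1 at P18, 236.5, 199.4 and 153.7 at P75, 2017, 1403 and 1361 at 6 months and 606.3, 733.1 and 821.1 at 24 months. It was thus 8.11 times higher at 6 months than at P75 and then 0.452 of the 6-month level, with the 24-month libraries below all at 6 months and above all at P18 and P75. The Pcdha sum was much lower, with 32.1, 26.0 and 34.1 at P18, 30.0, 26.0 and 26.6 at P75, 242.9, 128.7 and 129.4 at 6 months and 52.5, 69.2 and 97.2 at 24 months. Its order of ages was that of Pcdhg, with 1 library at 6 months well above the other two. Replicate 1 at 6 months was the highest library of that age in all 3 cluster sums.

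**Figure D2:**
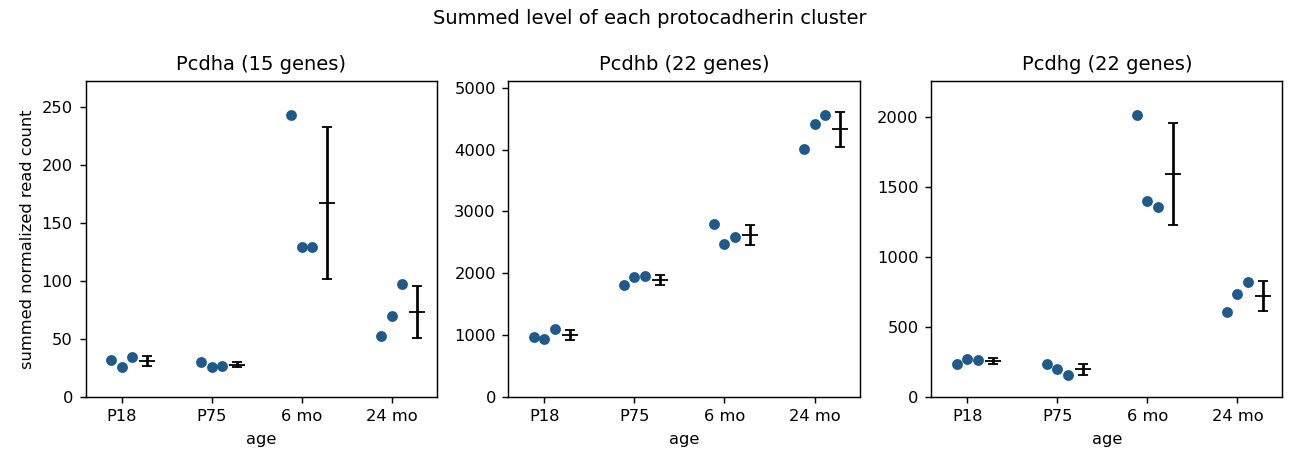
Summed normalized read count (vertical axis, from 0) of the Pcdha, Pcdhb and Pcdhg genes in each library by age, with points for libraries and a bar for the mean ± SD of 3 libraries. Pcdhb is highest at 24 months (4331 ± 286) and Pcdhg at 6 months (1594 ± 367).

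As a result the make-up of the clustered group changed at 6 months. Pcdhb made up 75.9 to 78.8% of the clustered sum at P18, 87.1 to 91.5% at P75, 55.2 to 63.4% at 6 months and 83.2 to 85.9% at 24 months. The share of Pcdhg was 18.7 to 22.0%, 7.2 to 11.4%, 33.4 to 40.0% and 13.0 to 15% at these ages. Neither share at 6 months overlapped with that of another age. The clustered genes together made up 10.6 to 11.5% of the level of the whole family at P18 and 17.4 to 18.1% at 24 months. The Pcdhg values of the young ages are imprecise, since the median gene had 5 reads in a library of P18 or P75, compared to 54 in a library of 6 months and 22 in one of 24 months.

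Among the 22 Pcdhb genes, 19 were tested. In the steps to P75, 6 months and 24 months, 15, 13 and 12 of them rose and 0 fell, with median log2 changes of 0.79, 0.47 and 0.69. Among all genes tested, 25.9%, 31.2% and 16.6% rose and 22.9%, 29.4% and 12.7% fell. Without a filter 14, 14 and 14 of the 22 genes lay above the earlier age in these steps, and 0, 1 and 0 below. All 19 were higher at 24 months than at P18, with a median of 2.22 and a range of 0.85 to 3.07, where 34.7% of all genes tested were higher. The 24-month libraries lay above those at P18 for 20 of the 22 genes and below them for 0, without a filter. The highest mean was at 24 months for 19 of the 22. Of the other Pcdhb genes, 2 had their highest mean at 6 months and 1 at P18. The latter was Pcdhb1, which was not tested and was near 0, with means of 0.397 at P18 and 0.323 at 6 months. Pcdhb21, highest at 6 months, was not tested either, with a mean of 6.66 over all libraries. Genes rising in each of the 3 steps were Pcdhb5, Pcdhb9, Pcdhb11, Pcdhb13, Pcdhb14 and Pcdhb20, joined in the rest of the family by Cdh1, Cdh2 and Cdh7.

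Pcdhb9 had the highest level per kilobase of merged exons among the Pcdhb genes, at 125.0 over the 12 libraries. Its normalized read count was 98.6, 110.7 and 114.5 at P18, 206.4, 271.7 and 267.5 at P75, 368.0, 348.8 and 337.7 at 6 months and 821.3, 848.8 and 788.7 at 24 months. No library overlapped with those of another age, and the log2 change (SE) was 1.19 (0.11), 0.51 (0.11) and 1.22 (0.11) in the 3 steps (limma, Benjamini-Hochberg adjusted p = 1.7e-06, 0.00137 and 2.7e-05). The median share of Pcdhb9 in the Pcdhb sum was 10.5% at P18 and 19.2% at 24 months, and the shares of these ages did not overlap.

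Other Pcdhb genes reached the same end by different steps. Pcdhb3 was at 40.4, 54.2 and 40.2 at P18, 98.2, 132.6 and 123.8 at P75, 160.9, 123.4 and 143.1 at 6 months and 330.9, 312.5 and 369.3 at 24 months. Its rise was called to P75 (log2 change 1.38) and to 24 months (1.24), while P75 and 6 months overlapped. Pcdhb7 gave 116.5, 91.5 and 139.6 at P18, 205.4, 211.4 and 232.2 at P75, 182.8, 176.6 and 204.4 at 6 months and 330.9, 387.1 and 394.3 at 24 months, with no called change in the middle step (-0.20, adjusted p = 0.235 by limma with Benjamini-Hochberg). Its 6-month libraries all lay below those of P75. Pcdhb6 went the other way, with 2.21 to 7.13 in the 6 libraries of P18 and P75 and 30.2 to 66.0 in the 6 older ones, a log2 change of 3.0 (SE 0.34) from P75 to 6 months.

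Pcdhb13 and Pcdhb14, which are neighbours, had total log2 changes of 3.07 and 2.85 (SE 0.17 and 0.15). Pcdhb13 was at 20.2, 20.3 and 27.1 at P18 and 173.4, 200.03 and 215.7 at 24 months, and Pcdhb14 at 48.7, 36.2 and 51.2 and at 287.3, 328.7 and 376.7. P18 and 24 months did not overlap for either gene. The rise of Pcdhb13 to 6 months (0.45) was not called without replicate 2 at P75 (0.35, adjusted p = 0.136 by limma with Benjamini-Hochberg). Pcdhb20, annotated as a pseudogene, was at 97.4, 96.0 and 104.5 at P18, 208.4, 224.4 and 182.4 at P75, 276.2, 222.8 and 291.9 at 6 months and 329.9, 361.1 and 373.0 at 24 months. Its last step (0.43) was lost without replicate 2 at 6 months (0.32), and its middle step (0.36) without replicate 3 at P75 or at 6 months (0.28 for each). For Pcdhb11 the last step (0.69) was lost without replicate 2 at 24 months (0.56), and for Pcdhb10 the first step (0.57) was lost without any 1 of 3 libraries (P18 replicate 1 and P75 replicates 2 and 3), with 0.32 to 0.59, and with quantile normalization (0.47) or a fit of P18 and P75 alone (0.57).

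The size of the rise varied along the Pcdhb array. For the 12 tested genes from Pcdhb3 to Pcdhb14 the log2 change from P18 to 24 months was 1.69 to 3.07, and for the 7 from Pcdhb15 to Pcdhb22 it was 0.85 to 1.83. Pearson's r between the order on the chromosome and the log2 change was -0.64 and Spearman's rho -0.60 across the 19 genes, which share the 12 libraries and are no replicates of each other. The pattern was noticed in these values, and the division into 2 stretches was made after seeing them. The order was not related in this way to the log2 level per kilobase, with r = 0.24 and rho = 0.14 across 22 genes. The log2 level per kilobase and the log2 change gave r = 0.0 and rho = 0.02 across 19 genes. Pcdhb genes are similar in sequence, and reads that match several of them may have been lost in the counting.

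**Figure D3:**
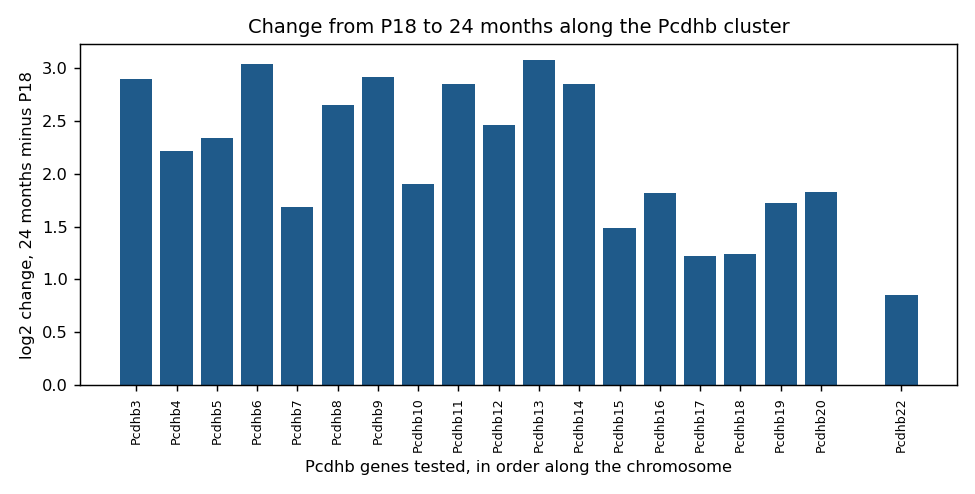
Bars give the log2 change from P18 to 24 months (vertical axis, from 0) of the 19 tested Pcdhb genes in their order along the chromosome (horizontal axis). Bars up to Pcdhb14 reach 1.69 to 3.07, and those from Pcdhb15 on reach 0.85 to 1.83.

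The Pcdhg genes were highest at 6 months. Of 19 tested, 0 rose and 2 fell to P75, 19 rose and 0 fell to 6 months, and 0 rose and 13 fell to 24 months, with median log2 changes of 0.03, 3.0 and -1.15. The remaining 6 had no called change from 6 to 24 months. Without a filter, the 6-month libraries were above those at P75 for 21 of the 22 genes, the 24-month libraries were below those at 6 months for 17, and the highest mean was at 6 months for 22. All 19 tested genes were still higher at 24 months than at P18, with a median of 1.84, where 34.7% of all genes tested were higher. The 24-month libraries lay above those at P18 for 20 of the 22 genes and below them for 0, without a filter. The number that fell to 24 months was 6 without replicate 1 at 6 months, the library with the highest Pcdhg sum. The number that fell to P75 was 1 without P18 replicate 1 or P75 replicate 3, and 4 without P75 replicate 1.

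The 3 subfamilies had the same order of ages from P75 on. In the order of the ages, the 12 gamma A genes summed to 78.2 ± 9.1, 82.4 ± 18.3, 682.0 ± 162.9 and 319.2 ± 29.5 (mean ± SD, n = 3). The 7 gamma B genes summed to 37.8 ± 4.3, 40.9 ± 7.1, 237.1 ± 64.3 and 129.5 ± 22.0, and the 3 gamma C genes to 139.1 ± 8.1, 73.2 ± 18.1, 674.9 ± 141.8 and 271.4 ± 59.4. The C-type genes differed at the first step, where their sum fell to 54.2 to 90.2 from 130.7 to 146.9 without overlap. They held 53.5 to 56.4% of the Pcdhg sum at P18 and 35.2 to 38.1% at P75.

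Pcdhgc3, which took the most reads of the array, was at 84.4, 113.0 and 110.5 at P18, 52.1, 54.7 and 44.2 at P75, 524.0, 381.7 and 351.3 at 6 months and 158.5, 187.1 and 207.4 at 24 months. No 2 ages overlapped. The log2 change (SE 0.17 in each step) was -1.01, 3.02 and -1.17 (limma, Benjamini-Hochberg adjusted p = 0.000205, 8.51e-09 and 0.000607). Pcdhgc5 was at 30.9, 22.6 and 20.1 at P18, 30.1, 13.9 and 5.53 at P75, 234.0, 154.5 and 179.1 at 6 months and 33.7, 56.2 and 94.4 at 24 months. P18 and P75 overlapped, and 6 months stood above all other libraries. Its rise to 6 months was 3.70 (SE 0.43), and its difference between P18 and 24 months (1.19) was not called without replicate 3 at 24 months (0.83), while its lower level at P75 (-0.80) became called without replicate 1 at P75 (-1.35). Pcdhgc4 was at 15.5, 11.3 and 9.04, at 8.02, 6.49 and 4.42, at 80.4, 48.8 and 71.0 and at 17.8, 32.4 and 26.8 at the 4 ages. Its fall to P75 (-0.82) was not called by edgeR or DESeq2 on the recovered reads (-0.89 for both), nor without P18 replicate 1 (-0.64) or P75 replicate 3 (-0.62), with a pseudocount of 10 (-0.42) or in a fit of P18 and P75 alone (-0.82).

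Of the A-type isoforms, Pcdhga11 was at 10.7, 23.7 and 10.04 at P18, 18.04, 24.1 and 14.4 at P75, 136.5, 103.0 and 93.4 at 6 months and 51.5, 41.1 and 51.8 at 24 months. The young ages overlapped, and both steps that followed were without overlap, with log2 changes of 2.51 and -1.18 (SE 0.29; limma, Benjamini-Hochberg adjusted p = 4.1e-06 and 0.0116). The largest fitted rise of the family to 6 months was that of Pcdhga6 (4.24, SE 0.39), from 1.11 to 7.01 at P75 to 76.9 to 104.0, which is reported for its size and was not named by the rule for genes. It rested on 7, 5 and 1 reads at P75, so its size and rank depend on the pseudocount of 1.

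**Figure D4:**
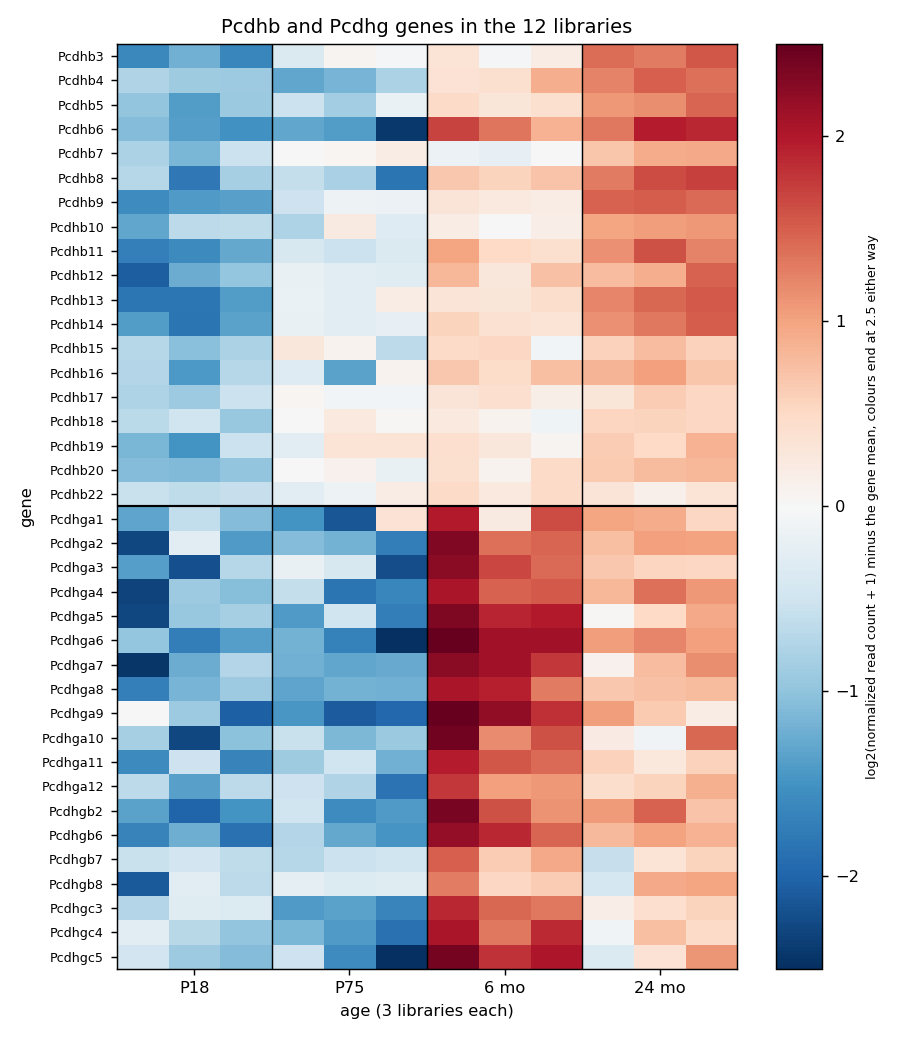
Colour gives log2(normalized read count + 1) minus the mean of the gene over the 12 libraries, for the 19 tested Pcdhb (above the line) and 19 tested Pcdhg genes (below), with the 3 libraries of each age side by side. Pcdhb rows are highest in the last 3 columns in most cases, and Pcdhg rows in the 3 columns of 6 months, of which replicate 1 is the darkest for most of the genes.

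The Pcdha array was at the limit of detection at P18 and P75. Pcdhac2 was the only Pcdha gene that passed the filter, with 14.3, 10.2 and 14.1 at P18, 9.02, 8.34 and 8.84 at P75, 109.7, 60.4 and 48.7 at 6 months and 18.8, 22.7 and 22.2 at 24 months. The 6-month libraries stood above all others, and the rise to 6 months ranged from 2.08 to 3.08 over the alternatives. The log2 change was 2.84 to 6 months and -1.65 to 24 months (SE 0.28; limma, Benjamini-Hochberg adjusted p = 1.22e-06 and 0.00188), and the difference between P18 and 24 months (0.70) was not called by edgeR (0.72) or DESeq2 (0.73), nor with quantile normalization (0.38) or without replicate 2 at P18 (0.55) or at 24 months (0.65). Pcdhac1 was at 0.0 to 2.26 at P18, 1.0 to 4.42 at P75, 7.99 to 15.4 at 6 months and 0.93 to 3.24 at 24 months. For the array as a whole, the 6-month libraries were above those at P75 for 11 of the 15 genes and below them for 0. The files do not tell how reads on the constant exons of Pcdha and Pcdhg were assigned. RefSeq lists 14 Pcdha and 22 Pcdhg genes that all end within 2 kb of a common end and have different starts, and reads on the shared part may have been left out as ambiguous, so that the values of single isoforms are uncertain to that extent. Pcdha4 had a mean of 0.318, so the shared reads were not given to every isoform.

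The classic cadherins rose at the first 2 steps and then changed little. Of 17 genes, all tested, 12 rose to P75, 13 to 6 months and 3 to 24 months, and 0 fell in any step, with median log2 changes of 0.68, 0.51 and 0.12. Among all genes tested, 25.9%, 31.2% and 16.6% rose and 22.9%, 29.4% and 12.7% fell. The 3 classic cadherins rising to 24 months were thus near the share of all genes. All 17 were higher at 24 months than at P18, where 34.7% of all genes tested were higher. Their median was 1.34, and the libraries of the 2 ages did not overlap for 17 of 17. Their sum was 4493 ± 272, 7032 ± 345, 9283 ± 766 and 10659 ± 912 at the 4 ages (mean ± SD, n = 3). The 3 that rose to 24 months were 0 without replicate 2 at 6 or 24 months and 1 without replicate 3 at either age.

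Cdh2 (N-cadherin), a type I cadherin of neural tissue that joins axons, synapses and glia, had the highest level per kilobase of the cadherins, at 371.3. Its normalized read count was 1654, 1517 and 1880 at P18, 2633, 2615 and 2808 at P75, 3755, 3063 and 3223 at 6 months and 3766, 4434 and 4592 at 24 months. The libraries of the ages followed each other without overlap. The log2 change (SE 0.10) was 0.68, 0.31 and 0.35 (limma, Benjamini-Hochberg adjusted p = 9.64e-05, 0.0177 and 0.0278), and the last was not called without replicate 2 at 6 months (0.29) or at 24 months (0.32), nor with libraries scaled to the same total (0.31). Of the other type I cadherins, Cdh4 (R-cadherin) was at 276.9, 266.7 and 359.6 at P18 and from 404.8 to 477.6 in the 9 older libraries. Cdh15 (M-cadherin, best known from muscle) had no call in any of the 3 steps, at 98.3 to 120.0 at P18, 118.3 to 159.3 at P75, 110.5 to 147.9 at 6 months and 137.3 to 183.3 at 24 months. Its lower level at P18 than at 24 months (log2 change 0.51, adjusted p = 0.0095 by limma with Benjamini-Hochberg) was without overlap, but it was lost with quantile normalization (0.29). The rise of Cdh15 to P75 (0.29) became called with the GC correction, with scaling to the same total (0.41 for both) and without P75 replicate 3 (0.39). Cdh1 (E-cadherin), at a low level, was at 14.3, 21.5 and 17.1 at P18 and 88.2, 112.5 and 107.4 at 24 months, a log2 change of 2.49 (SE 0.21).

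The type II cadherins, among them many that mark subsets of neurons, gave 8, 10 and 1 rising of 12 tested in the 3 steps. The shares rising among all genes tested were 25.9%, 31.2% and 16.6%. Cdh11, a mesenchymal and neural member, was at 600.1, 563.8 and 546.4 at P18, 821.7, 800.2 and 923.1 at P75, 1209, 1057 and 1205 at 6 months and 1166, 1428 and 1384 at 24 months. Only the last 2 ages overlapped, and their difference of 0.19 passed the threshold without replicate 1 at 24 months (0.28). Cdh10 was at 330.3, 371.7 and 429.9, then 611.3, 661.1 and 677.7, then 959.5, 906.3 and 878.7, and finally 867.8, 979.6 and 997.9, which gave log2 changes of 0.79, 0.49 and 0.05. Cdh8 followed the same order, from 260.2, 332.2 and 348.5 at P18 to 816.3, 948.2 and 915.5 at 24 months. Different courses were found among the type II genes.

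Cdh19 and Cdh20 rose to P75 and stayed there. Cdh20 was at 419.5, 377.4 and 324.4 at P18 and 573.2, 568.4 and 704.2 at P75 (log2 change 0.72, SE 0.11) and ranged from 618.2 to 742.8 in the 6 libraries after that. Cdh19, a gene of Schwann cell precursors, was at 102.2 to 104.5 at P18 and 162.3 to 228.8 at P75 (0.85, SE 0.14), with 175.0 to 227.5 afterwards. By contrast, Cdh18 and Cdh22 rose at the step to 6 months, as did Cdh6 (log2 change 1.32) and Cdh24 (1.96) at lower levels. Cdh18 was at 98.6, 127.7 and 123.6 at P18, 144.3, 125.2 and 137.1 at P75, 465.5, 348.8 and 333.8 at 6 months and 326.9, 373.0 and 350.8 at 24 months, with no overlap between P75 and 6 months (1.48, SE 0.14; limma, Benjamini-Hochberg adjusted p = 6.7e-07). Cdh22 was at 222.2 to 263.6 at P75 and 381.7 to 483.4 at 6 months (0.81, SE 0.13), and a rise to P75 (0.33) was called without replicate 2 at P18, with the GC correction (0.36) and with scaling to the same total (0.31), which also called Cdh18 higher at P75 (0.35). The third course, a rise in both steps, was that of Cdh7, Cdh8, Cdh9, Cdh10, Cdh11 and Cdh12. Cdh12 was at 47.5 to 72.3 at P18, 96.4 to 117.3 at P75, 148.2 to 214.5 at 6 months and 185.3 to 193.5 at 24 months. Cdh9 was at 102.2 to 154.7, 235.5 to 260.6, 297.4 to 315.3 and 314.0 to 385.1 at these ages, and its middle step (0.29) was lost without any 1 of 5 libraries, with 0.25 to 0.31, with quantile normalization (0.24) and with scaling to the same total (0.28). The last step of Cdh7 (0.35) was lost without any 1 of 4 libraries, with 0.28 to 0.37, and with no filter (0.35), quantile normalization or scaling to the same total (0.31 for both).

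**Figure D5:**
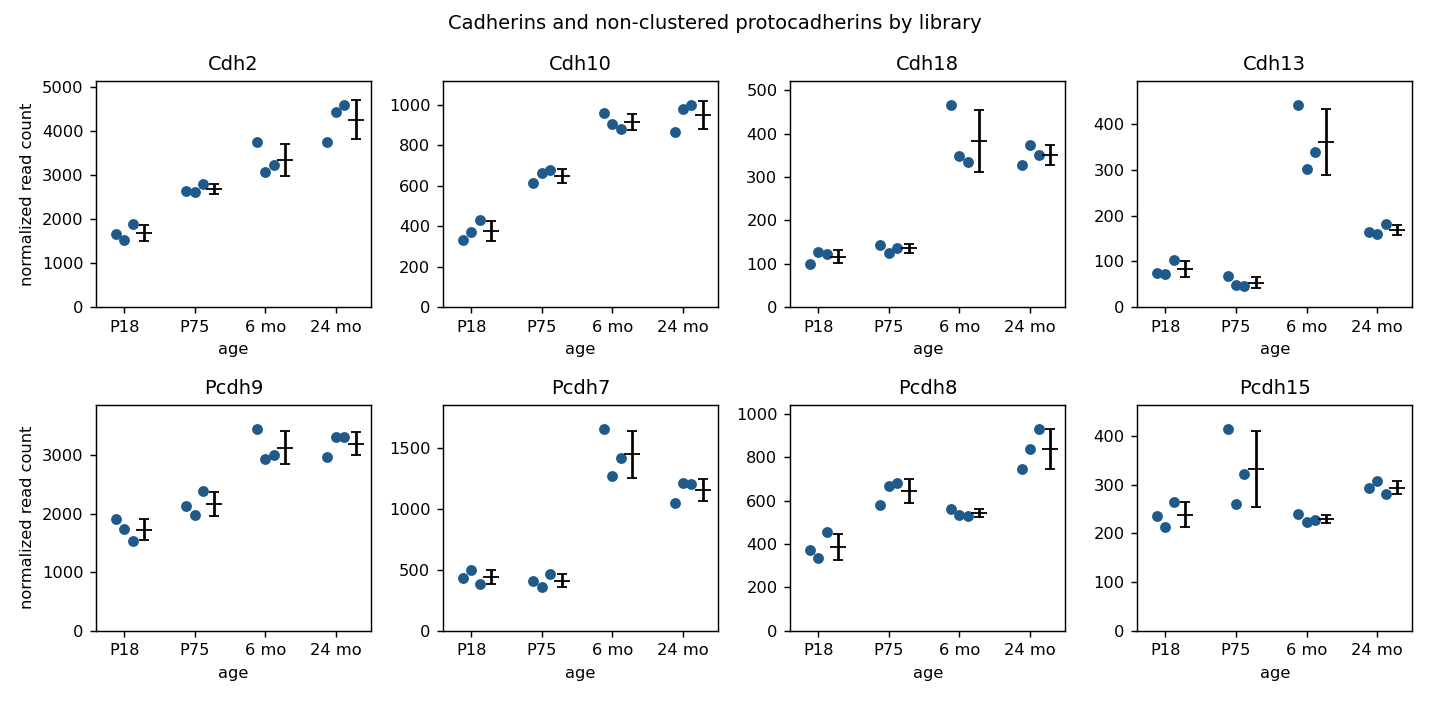
Normalized read count (vertical axes, from 0 and of different scale) of 4 cadherins and 4 non-clustered protocadherins in each library by age, with points for libraries and a bar for the mean ± SD of 3 libraries. Cdh2 and Cdh10 climb from P18 on, Cdh18, Cdh13 and Pcdh7 step up between P75 and 6 months, and Pcdh8 and Pcdh15 are lower at 6 months than the means at P75 and 24 months.

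Of the 6 atypical cadherins, a mixed set outside the classic types, 2 were tested. Without a filter, 0, 3 and 0 of the 6 lay above the earlier age in the 3 steps and 2, 0 and 1 below. Cdh13 (T-cadherin), held to the membrane by a lipid anchor, was at 74.9, 72.3 and 102.5 at P18, 67.1, 47.3 and 46.4 at P75, 442.0, 301.8 and 339.6 at 6 months and 164.5, 161.1 and 182.4 at 24 months. No 2 ages overlapped. The log2 change (SE 0.18) was -0.63, 2.73 and -1.07 (limma, Benjamini-Hochberg adjusted p = 0.0105, 3.49e-08 and 0.00162), so that Cdh13, Pcdhgc3 and Pcdhgc4 were the 3 tested genes with a fall, a rise and a fall. Cdh23, a tip-link cadherin of hair cells, was at 11.3 to 23.1 at P18 and 34.7 to 40.7 at 24 months.

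The non-clustered protocadherins took the most reads of the family at each age, with sums of 5949 ± 159, 8138 ± 659, 12041 ± 1003 and 12774 ± 1109 at the 4 ages (mean ± SD, n = 3). Of the 12 genes, 11 were tested, of which 7, 7 and 2 rose and 0, 2 and 3 fell in the 3 steps, with median log2 changes of 0.46, 0.50 and 0.03. Among all genes tested, 25.9%, 31.2% and 16.6% rose and 22.9%, 29.4% and 12.7% fell. The 2 rising to 24 months were thus near the share of all genes. Without a filter 6, 7 and 2 of the 12 lay above the earlier age and 0, 2 and 3 below. From P18 to 24 months 10 rose and 0 fell, where 34.7% and 34.3% of all genes tested did so. The 3 that fell to 24 months, Pcdh1, Pcdh7 and Pcdh11x, were 0 without replicate 1 at 6 or at 24 months, and 1 without replicate 2 at either age or replicate 3 at 24 months. The 2 that rose to 24 months, Pcdh8 and Pcdh15, were 1 without replicate 1 or 2 at 6 months or replicate 2 or 3 at 24 months. Pcdh15 also lost its call without replicate 3 at 6 months, where Pcdh19 (0.41) gained one. The same held without replicate 1 at 24 months, where Pcdh10 (0.28) gained one.

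Pcdh9, a delta-1 protocadherin, had the highest level per kilobase of the 56 members with an annotated exon length, which include no Pcdha or Pcdhg gene, at 688.5, which was rank 1938 among the 21135 genes with a length. It was at 1907, 1732 and 1543 at P18, 2135, 1986 and 2391 at P75, 3451, 2932 and 3012 at 6 months and 2969, 3307 and 3321 at 24 months. The first 3 ages followed each other without overlap, with log2 changes of 0.33 and 0.53 (SE 0.10), and the last 2 overlapped. Pcdh7, another delta-1 member, was at 432.5, 499.4 and 383.7 at P18, 411.9, 357.9 and 465.4 at P75, 1655, 1269 and 1417 at 6 months and 1048, 1210 and 1201 at 24 months. Its rise to 6 months was 1.81 (SE 0.12; limma, Benjamini-Hochberg adjusted p = 4.58e-08), and the 24-month libraries were lower than all at 6 months by a log2 change of -0.32, which was lost without any 1 of 5 libraries, with -0.36 to -0.22, and with the replicate block (-0.32). Pcdh1 was at 53.5, 58.8 and 94.4 at P18, 87.2, 85.3 and 70.8 at P75, 218.5, 152.7 and 152.8 at 6 months and 112.9, 125.4 and 132.4 at 24 months. Its fall to 24 months (-0.48) was lost without any 1 of 7 libraries, with -0.56 to -0.31, and with a filter of 100, no filter, the replicate block (-0.48 for each) or scaling to the same total (-0.52). Its rise to P75 was called without P18 replicate 3 (0.52) and with the GC correction (0.41). The 4 delta-1 genes gave 1 rising to P75, 4 to 6 months and 0 to 24 months, with 3 falling at the last step. Among all genes tested, 25.9%, 31.2% and 16.6% rose in these steps and 12.7% fell at the last.

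The 5 delta-2 protocadherins, which include partners of the actin-regulating WAVE complex, gave 4, 2 and 1 rising, and all 5 were higher at 24 months than at P18. The shares of all genes tested were 25.9%, 31.2% and 16.6% in the 3 steps and 34.7% from P18 to 24 months. Pcdh10 was at 1734, 1824 and 1636 at P18, 2436, 2446 and 2766 at P75, 3698, 3282 and 3807 at 6 months and 3659, 4516 and 4226 at 24 months. The first 3 ages did not overlap, with log2 changes of 0.56 and 0.50 (SE 0.09), and the last step (0.20) was called without replicate 1 at 24 months (0.28) and with quantile normalization (0.24). Pcdh17 was at 388.7 to 466.7 at P18, 447.8 to 523.1 at P75, 966.6 to 1218 at 6 months and 861.9 to 1028 at 24 months, a single step of 1.15 (SE 0.11) between P75 and 6 months, and a step to P75 (0.28) was called without replicate 2 at P18 or at P75, and with scaling to the same total (0.34). Pcdh19 was at 406.4 to 432.8 at P18 and 595.3 to 839.1 at P75 (0.70, SE 0.14), and Pcdh18 at 96.0 to 102.5 and 129.3 to 163.6 (0.52, SE 0.13). Pcdh20, which was grouped with the other protocadherins and not with delta-2, was at 350.3 to 456.0 at P18, 558.2 to 663.3 at P75, 795.3 to 889.6 at 6 months and 825.2 to 1086 at 24 months.

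Pcdh8 and Pcdh15 were the 2 tested genes called lower at 6 months than at P75 and higher again at 24 months. Pcdh8, a member induced by neuronal activity, was at 374.3, 334.5 and 454.0 at P18, 579.2, 669.4 and 681.0 at P75, 563.8, 536.1 and 529.4 at 6 months and 747.9, 840.1 and 931.2 at 24 months. No 2 ages overlapped, but the fall to 6 months was small (-0.24, SE 0.11; limma, Benjamini-Hochberg adjusted p = 0.0885) and was lost without any 1 of 6 libraries, with -0.27 to -0.20, with no filter (-0.24) and with scaling to the same total (-0.25). Pcdh15, the partner of Cdh23 in the tip link, was at 236.5, 213.6 and 265.2 at P18, 414.9, 259.6 and 321.7 at P75, 239.7, 222.8 and 228.7 at 6 months and 294.2, 308.2 and 280.5 at 24 months. Its fall was -0.50 (SE 0.14; adjusted p = 0.00674 by limma with Benjamini-Hochberg), its rise to 24 months (0.35) was lost without any 1 of 6 libraries, with 0.32 to 0.39, and with no filter (0.35), quantile normalization or scaling to the same total (0.31 for both). The rise of Pcdh15 from P18 to 24 months (0.31) was lost without any 1 of 4 libraries, with 0.23 to 0.31, with quantile normalization (0.16) and with the GC correction (0.26).

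The promoters of Pcdh7, with a large rise to 6 months, and of Pcdh8 and Pcdh15, with a fall at the same step, are shown for this contrast. Each sequence holds the 250 bases before the start of the gene in RefSeq (GRCm38.p6), 5′ to 3′ on the strand of the gene, with each CG in capitals (the motif is CG, which reads the same on both strands). Pcdh7 lies on the plus strand at chr5:57717831-57718080, Pcdh8 on the minus strand at chr14:79771313-79771562 and Pcdh15 on the plus strand at chr10:73821617-73821866.
Pcdh7: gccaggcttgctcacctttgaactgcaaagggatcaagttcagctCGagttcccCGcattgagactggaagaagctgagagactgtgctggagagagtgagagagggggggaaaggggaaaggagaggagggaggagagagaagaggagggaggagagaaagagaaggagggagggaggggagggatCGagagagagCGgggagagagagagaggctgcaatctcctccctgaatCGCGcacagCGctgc
Pcdh8: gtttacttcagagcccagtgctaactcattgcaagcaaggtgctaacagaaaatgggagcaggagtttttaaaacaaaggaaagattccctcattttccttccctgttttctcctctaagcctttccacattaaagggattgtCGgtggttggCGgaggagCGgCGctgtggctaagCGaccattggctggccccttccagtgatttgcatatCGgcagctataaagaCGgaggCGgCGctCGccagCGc
Pcdh15: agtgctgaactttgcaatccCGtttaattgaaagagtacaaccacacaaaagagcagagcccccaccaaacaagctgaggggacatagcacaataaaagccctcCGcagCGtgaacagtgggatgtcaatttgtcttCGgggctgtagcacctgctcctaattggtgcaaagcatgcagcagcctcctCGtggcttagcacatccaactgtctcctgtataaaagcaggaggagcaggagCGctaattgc
The windows hold 7, 11 and 6 CG, compared to a median of 6 over 32851 windows of the same length, of which 92.1% hold at least 1. At least as many were found in 46.3%, 35.6% and 50.4% of all windows. RefSeq windows were matched for 22 of the 94 genes, in 25 windows with a median of 10 CG. The range was 0 (Cdh26) to 30 (Cdh22).

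Genes that work with cadherins were counted in the same way. Of all genes tested, 25.9%, 31.2% and 16.6% rose and 22.9%, 29.4% and 12.7% fell in the 3 steps. No list was tested as a set. Of 7 catenins, which tie classic cadherins to actin, 0 rose and 4 fell to P75, 4 rose and 1 fell to 6 months, and 0 rose and 4 fell to 24 months, with median log2 changes of -0.21, 0.35 and -0.31. Of 16 tested genes among 18 other members of the superfamily (Fat, Celsr, calsyntenin and desmosomal genes among them), 11, 5 and 0 rose and 0, 3 and 1 fell, with medians of 0.53, -0.01 and -0.03. Of 11 regulators of the protocadherin arrays (Ctcf, cohesin and silencing genes), 4, 5 and 0 rose and 1, 3 and 3 fell, with medians of 0.17, 0.09 and -0.11. Of 11 genes of the WAVE complex and of kinases that bind protocadherins, 3, 5 and 1 rose and 1, 2 and 3 fell, with medians of 0.00, 0.05 and -0.21. Of 6 genes for enzymes that cleave cadherins, 2, 5 and 1 rose and 1, 0 and 1 fell, with medians of 0.09, 0.65 and 0.04. Ctcf, which binds the promoters of the arrays, was at 2202 ± 202 at P75 and 1741 ± 7.09 at 6 months (mean ± SD, n = 3), a log2 change of -0.33 (limma, Benjamini-Hochberg adjusted p = 0.00367). Stag1 (-0.20) and Dnmt3b (-0.64) were the other regulators that fell at this step. Those that rose were Smc1a (0.45), Smc3 (0.29), Nipbl (0.67), Wapal (0.97) and Smchd1 (0.32). A relation of these changes to the arrays was not tested.

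Markers of other cells moved at the same steps, where 25.9%, 31.2% and 16.6% of all genes tested rose and 22.9%, 29.4% and 12.7% fell. From P75 to 6 months, 11 of 15 neuronal markers rose and 3 fell (median log2 change 0.43), and from 6 to 24 months 1 rose and 5 fell (-0.21), while the neuronal sum was 246904 to 279565 at P75, 252390 to 263983 at 6 months and 230618 to 243979 at 24 months. Of 12 microglial markers 9, 6 and 7 rose and 0, 2 and 0 fell, and their sum went from 6866 to 7818 at P18 to 17238 to 21200 at 24 months. The sum of 7 ependymal and choroid plexus markers went from 12809 to 14925 at P18 to 42683 to 47365 at 24 months. Their median log2 change between these ages was only 0.40, with 5 higher and 1 lower. The sum of 9 oligodendrocyte precursor markers went from 16832 to 17042 down to 6039 to 6942, with a median of -0.22, 1 higher and 4 lower. Sums give the most weight to the genes with the most reads. Yet 5 of these 9 precursor markers rose and 2 fell from P75 to 6 months (median log2 change 0.29). The sum of the mature oligodendrocyte and myelin genes was 2491975 to 6220163 at P18 and 1290779 to 2388199 in the later libraries, and 9 of these 12 genes fell to P75. Of 8 meningeal and fibroblast markers 4 rose and 0 fell to 6 months, with sums of 2686 to 3289 at P75 and 4664 to 4995 at 6 months. Of 10 forebrain genes 1 rose and 7 fell at that step. Astrocytic markers gave 3 rising and 1 falling at that step, and endothelial and mural ones, with sums of 921 to 1198, 4 rising and 2 falling. Of 11 cerebellar and hindbrain genes 3 rose and 4 fell, and of 7 genes of newly formed oligodendrocytes 1 rose and 2 fell. The part of these markers in the changes of the cadherins and protocadherins was not tested.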

How the data were processed

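RNA-Seq of purified myelin gave 12 libraries, 3 per age, grouped by the age in the labels. At 6 months the 3 libraries came from individual brains. Where separate mice are not stated, p-values measure the spread between libraries only. Per the submitters' processing notes and the methods, TopHat2 was used by the authors for alignment to mm9 and HTSeq 0.5.4p1 for counting on genes, and DESeq supplied the size factor of each library. The signal they deposited is the count over that factor, the normalized read count. Library preparation strand and the handling of ambiguous reads are not given in the sources used here.

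Each value divided by the value of 1 read (0.812 to 1.19) gave whole reads for 100% of the values, within 0.1. Ages were compared with limma 3.58.1 (R 4.3.3; trend, empirical Bayes, 1 fit of all 12 libraries) on log2(normalized read count + 1), for genes with a mean of at least 10 and with Benjamini-Hochberg adjustment over all genes tested (called under 0.1). edgeR 4.0.16 and DESeq2 1.42.0 on the recovered reads were alternatives, beside a pseudocount of 0.5 or 10, no filter or a filter of 100, scaling to the same total, quantile normalization, a replicate block, a fit without the other 2 ages, a threshold of 0.05, a GC correction (added after seeing the data) and each library left out in turn. Among the members edgeR called 34, 55 and 17 rising and 2, 2 and 21 falling in the 3 steps. The methods were tested on simulated data.

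The members, gene lists and rules were chosen with earlier results of these data known. Genes were named with values if they had the 5 largest called rises or falls of a comparison with a mean of at least 100 at 1 age and no overlap, the 10 highest levels per kilobase, or a mean of at least 100 among type I, type II and delta genes, or were C-type. Other genes named were chosen after their values were seen. Coordinates and merged exon lengths are from GENCODE vM1 (NCBIM37). Exons of Cdh4, Cdh8, Cdh24 and Pcdh19 overlap another gene, which makes their counts uncertain. Promoters are from RefSeq (GRCm38.p6), and none from chromosome 18 was used.

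The same replicate number marks different mice, and the correlation of same-numbered libraries' deviations was -0.213 to 0.187, over 0.1 for 4 of 18 pairs. For P75 and 6 months all 3 pairs were over 0.1 (0.161, 0.101 and 0.187). The labels give no pairing, and the reported fits used none in any step. A replicate block was run only as an alternative, over all 12 libraries. The source of the correlation between P75 and 6 months is not known.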

Additional observations from a re-analysis of the deposited data

How the results depend on the processing

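Among the 37 tested genes named by the rule, 3408 of 3520 alternative values kept their side of the threshold, 88 lost the call and 24 gained it. The sign differed in 22 alternatives of 8 log2 changes, none of which was called and all of which were at most 0.11 in size. The number of members called was within 1.5 times the reported count under all alternatives but these. With a filter for a mean of at least 100, which leaves fewer genes to test, 22 rose from P75 to 6 months, 10 rose and 3 fell from 6 to 24 months, and 33 rose from P18 to 24 months, as many as the F test called (33). With quantile normalization 7 fell from P18 to P75. With no filter, with libraries scaled to the same total, or at an adjusted p under 0.05, 1 fell from P75 to 6 months, and the cause was not tested. Leaving out 1 library in turn gave 2 to 5 falling to P75, 1 to 2 falling to 6 months, and 11 to 17 rising and 8 to 19 falling to 24 months. Scaling to the same total moved the median of all genes by 0.124 from P18 to P75, and quantile normalization moved it by -0.106 from P18 to 24 months. The family medians of the reported fits were 0.49 and 1.52 for these pairs of ages. The part of the scaling in the family changes was not tested. A correction for GC content, added after seeing the data, gave 55 rising to 6 months.

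With the replicate block 34 rose and 3 fell to P75, 55 rose and 2 fell from P75 to 6 months, and 16 rose and 16 fell from 6 to 24 months, where 1 non-clustered protocadherin fell. No call of a named gene changed with it but those of Pcdh1 and Pcdh7 from 6 to 24 months.

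Depth limits the Pcdha and young Pcdhg values, which rest on few reads per gene.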
